A study of Mus musculus with 27 samples.

Results

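The 9 genes described here are Apela, Chaf1b, Acat3, Bag1, Msh6, Pcbp1, Fads2, Kcnn2 and Pard6g. They were selected on their measured changes, since each had a higher count, at a Benjamini-Hochberg adjusted p under 0.05 (termed called), in all 5 knockout lines of mouse embryonic stem cells than in the wild-type (WT) cells. They are 9 of the 14006 genes listed for these cells and of the 11951 that passed a filter on low counts, and all 9 passed it. In the fit used here 19 genes met that criterion, 0.159% of those tested, and 22 genes (0.184%) were called lower in all 5 lines. Every comparison of a knockout line with WT therefore entered the choice, and the changes against WT are given as a description without a test.

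N6-methyladenosine (m6A) is a methyl mark that the METTL3 enzyme complex writes on adenosines of mRNA, mostly near stop codons and in 3′ untranslated regions (UTRs). The cytoplasmic proteins YTHDF1, YTHDF2 and YTHDF3 bind the mark through a shared YTH domain, and YTHDF2 is best known for recruiting deadenylases that speed the decay of marked mRNAs. In mouse embryonic stem cells the m6A pathway is known for limiting the lifetime of pluripotency mRNAs and thereby for allowing exit from the undifferentiated state.

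The stem cells were of the KH2 line (C57BL/6 x 129/Sv) and were grown in serum with LIF, a cytokine that keeps them undifferentiated. Poly(A) RNA was sequenced in 2 libraries each, lettered A and B, of WT, Ythdf1-/-, Ythdf2-/-, Ythdf3-/-, the triple knockout (Ythdf1-/-Ythdf2-/-Ythdf3-/-) and Mettl3-/-. The sources used here do not say how each line was made or whether a line is 1 clone. Experiments in germ cells served for comparison, each on its own mouse background. GV (germinal vesicle) oocytes are full grown and arrested before meiotic maturation. They comprised 3 Mettl3f/f Zp3-Cre+ samples, where Cre acts in growing oocytes, and 4 Mettl3f/f Zp3-Cre- control samples, on a BDF1 X C57BL/6 X Jax#003651 background. Oocytes past that stage came from 2 Ythdf2-/- and 3 Ythdf2+/- samples, and sorted round spermatids from 2 Ythdf2-/- samples and 1 Ythdf2+/+ sample, all CB6F1 X C57BL/6. The sources used here give no ages.

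Total counts ran from 612598 to 1111764 per stem cell library, and the WT pair, with 1099347 and 1111764, was the deepest of the 6. The A and B libraries of a group differed by less than counting noise (a chi-square of 0.675 to 0.832 per gene), nothing states that they were separate cultures, and so p-values measure only the spread between such libraries. Mettl3 fell from 141 and 137 CPM (counts scaled to the size of the library after TMM normalization) in WT to 18.1 and 15.2 in the Mettl3 line. Ythdf2 stood at 26.1 and 24.96 CPM in WT and at 18.1 and 10.5 in its own line, but at 35.9 and 30.1 in the triple line. The fall in its own line was not called, so the label Ythdf2-/- is used as given. Ythdf1 and Ythdf3 mRNA was not lower in their own lines, and a count over a whole gene does not test an edit that leaves the transcript in place, so the labels Ythdf1-/-, Ythdf3-/- and triple knockout were not checked by expression and are used as given. Stem cell identity markers summed to 3797 to 4488 CPM in all 12 libraries, with WT at 3872 to 3918, below every single and triple knockout library. The 10 markers did not move alike. In the triple line 4 were called higher and 3 lower, and in the Mettl3 line 4 higher and 4 lower. In the Ythdf1, Ythdf2 and Ythdf3 lines 3, 1 and 3 were called higher and 0 lower. Oocyte markers summed to 14331 to 27472 CPM in the GV samples and were lower in the later oocytes, at 6837 to 6867 in knockouts and 2227 to 4383 in heterozygotes. Round spermatid markers summed to 8172 to 13799 CPM in the spermatids, where markers of other testis cells summed to 27.9 to 30.4 in knockouts and 15.0 in WT.

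All 10 knockout libraries were above both WT libraries for each of the 9 genes. Across the 45 combinations of gene and line the log2 change against WT ran from 0.21 for Msh6 in the Ythdf1 line to 1.92 for Kcnn2 in the triple line. The share of all tested genes called in either direction was 3.45% in the Ythdf1, 1.91% in the Ythdf2, 2.84% in the Ythdf3, 25.1% in the triple and 30.4% in the Mettl3 line. DESeq2's Wald test, run on all deposited genes, called 16 of the 45 combinations and 0 of the 9 genes in all 5 lines. It called 1 gene each in the Ythdf1, Ythdf2 and Ythdf3 lines, 7 in the triple and 6 in the Mettl3 line, where it called 0.364%, 0.0714%, 0.178%, 4.81% and 8.25% of all genes. Just inside the criterion by edgeR lay Rbfa, Chmp2a and Bag1, with largest adjusted p-values of 0.037, 0.0394 and 0.0407, and just outside lay Dpep3, Igfbp2 and Pim1, with 0.054, 0.0573 and 0.0587.

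**Figure D1:**
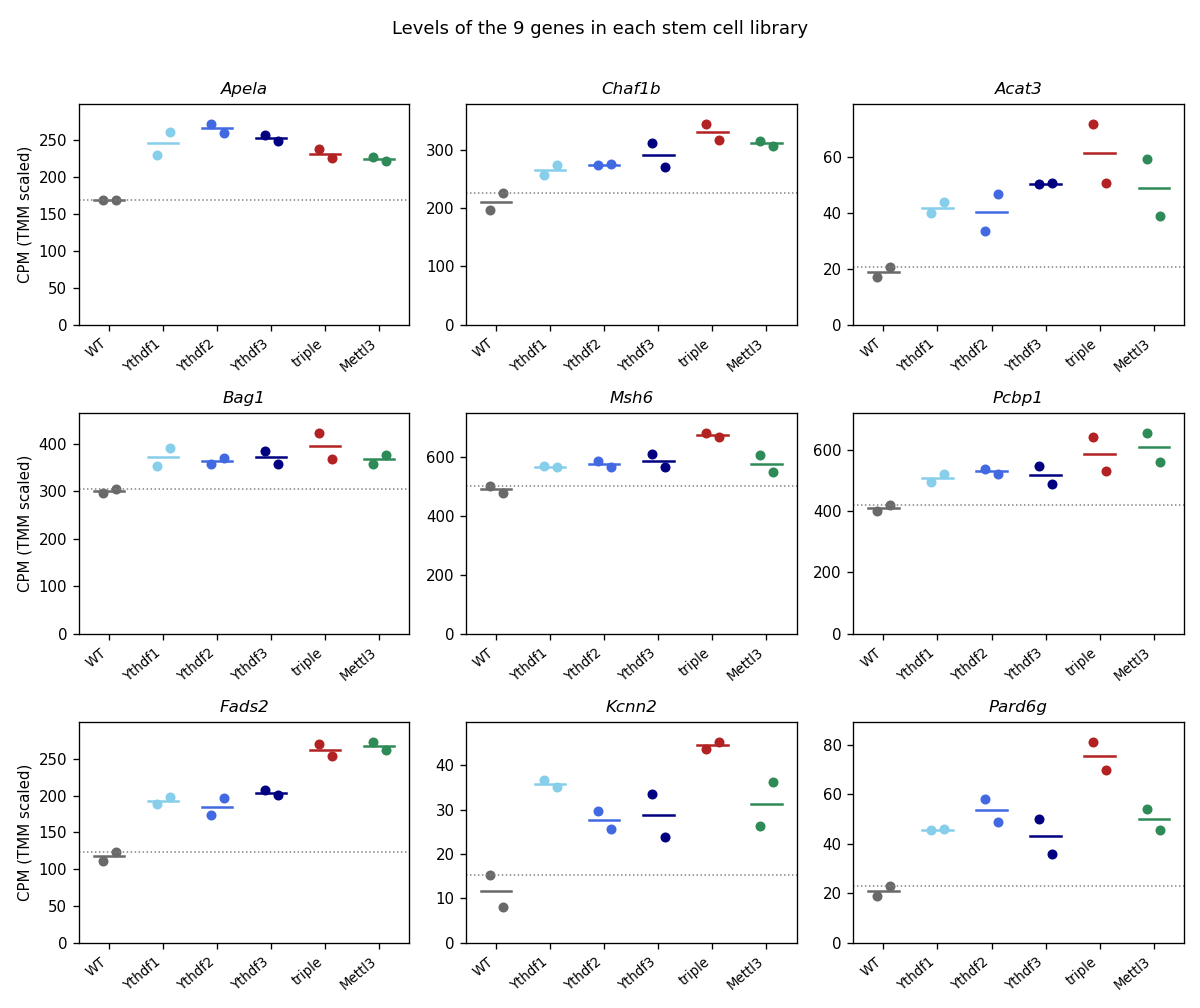
Level of each of the 9 genes in each of the 12 stem cell libraries, in CPM after TMM scaling, with 1 panel per gene. Points are libraries, short bars are the mean of a pair and the dotted line marks the higher WT library. Every knockout point lies above the dotted line in all 9 panels.

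Fads2 and Acat3 are enzymes of lipid metabolism. Fads2, on chromosome 19 (chr19:10062765-10101746, minus strand, GRCm38), encodes the delta-6 desaturase that starts the conversion of dietary linoleic and linolenic acid to longer polyunsaturated fatty acids. Fads2 stood at 112 and 123 CPM in the WT pair, 189 and 198 in the Ythdf1, 173 and 197 in the Ythdf2, 207 and 201 in the Ythdf3, 269.8 and 253 in the triple and 273 and 262 in the Mettl3 knockout pair. The 6 libraries of the single knockouts lay between WT and both the triple and the Mettl3 libraries, and the 3 ranges did not overlap. Against WT its log2 changes were 0.72 in the Ythdf1, 0.66 in the Ythdf2, 0.79 in the Ythdf3, 1.15 in the triple and 1.18 in the Mettl3 line, with standard errors of 0.0931 to 0.108. By DESeq2 it was the one member called in 4 lines, all but Ythdf2. Fads1, its neighbour and the delta-5 desaturase of the same pathway, changed by 0.39, 0.10, 0.48, 0.31 and 0.44 in the same order and was called in the Ythdf3 and Mettl3 lines. Among 18 other genes of fatty acid desaturation and elongation, 1 was called higher and 3 lower in the triple line (Scd2 against Elovl4, Elovl7 and Fasn). In the Mettl3 line 2 were higher, Fads1 and Scd2, and 2 lower. In the single lines Elovl4 was lower in Ythdf1, Scd2 higher in Ythdf2 and Ythdf3, and in Ythdf3 Fads1 was higher and Elovl7 lower.

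Acat3 (chr17:12923813-12940600, minus strand) encodes an acetyl-CoA acetyltransferase close in sequence and place to Acat2, the cytosolic thiolase that joins acetyl-CoA units ahead of sterol synthesis. Acat3 stood at 17.1 and 20.5 CPM in the WT pair, 39.99 and 43.7 in the Ythdf1, 33.6 and 46.6 in the Ythdf2, 50.2 and 50.5 in the Ythdf3, 71.7 and 50.6 in the triple and 59.1 and 38.7 in the Mettl3 knockout pair. These levels rest on 19 to 46 counts per library. Both triple libraries were above all 6 single knockout libraries, and of the Mettl3 pair 1 library was above them and 1 within their range. On the log2 scale it changed against WT by 1.15 in the Ythdf1, 1.10 in the Ythdf2, 1.41 in the Ythdf3, 1.68 in the triple and 1.32 in the Mettl3 line, each with a standard error of 0.229 to 0.262. Reads from Acat2 could be assigned to Acat3 by the authors' counting, which makes the value uncertain. Acat2 itself changed by -0.16 in the triple and -0.01 in the Mettl3 line and was called in none. Tcp1, which overlaps the end of Acat3 by 1255 bases on the opposite strand, changed by 0.21 in the triple and 0.08 in the Mettl3 line, also without a call. Of 22 other genes of acetoacetyl-CoA and sterol synthesis, 2 were called higher and 1 lower in the triple line. In the Mettl3 line Fdps, Msmo1, Sc5d and Dhcr7 were among the genes called higher, and Lss, lanosterol synthase, was lower. Among the single lines Msmo1 alone was called, higher in Ythdf3.

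Chaf1b and Msh6 act on newly replicated DNA. Chaf1b (chr16:93883901-93906115, plus strand) encodes the middle subunit of CAF-1, which places histones H3 and H4 behind the replication fork. Chaf1b stood at 196 and 226 CPM in the WT pair, 258 and 274 in the Ythdf1, 274 and 276 in the Ythdf2, 311 and 271 in the Ythdf3, 345 and 318 in the triple and 315 and 307 in the Mettl3 knockout pair. WT was lowest, and the triple pair was above every other library. Its changes against WT on the log2 scale were 0.33 in the Ythdf1, 0.38 in the Ythdf2, 0.45 in the Ythdf3, 0.64 in the triple and 0.55 in the Mettl3 line. The large CAF-1 subunit gene Chaf1a was called in no line, with changes of -0.09 to 0.29, while the third subunit gene, Rbbp4, was called lower in the triple and the Mettl3 line. Of 21 other histone deposition genes 4 were called higher in the triple line, namely Ssrp1 and Supt16, which form the FACT complex, with the chaperones Nap1l1 and Npm1, and 1 was lower. The single knockout lines had 0 calls among these 21 genes.

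Msh6 (chr17:87975062-87990892, plus strand) encodes a subunit of the complex that recognizes base mismatches after replication. Msh6 stood at 504 and 478 CPM in the WT pair, 571 and 566 in the Ythdf1, 587 and 568 in the Ythdf2, 611 and 566 in the Ythdf3, 683 and 668 in the triple and 609 and 549 in the Mettl3 knockout pair. The step from WT to the single lines was small beside the level, and the triple pair lay above all other libraries. The change against WT was on the log2 scale 0.21 in the Ythdf1, 0.23 in the Ythdf2, 0.25 in the Ythdf3, 0.46 in the triple and 0.23 in the Mettl3 line, with standard errors of 0.0631 to 0.0637. Of 15 other mismatch repair genes 0 were called in any single knockout or in the triple line, whereas the Mettl3 line had calls in both directions, with Pms1 and Pold3 higher and Msh3 and Exo1 among those lower. The 3′ ends of Msh6 and Fbxo11 overlap by 34 bases on opposite strands, and Fbxo11 was called in no line.

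Apela is the one secreted signal among the 9. The gene (chr8:65028417-65037336, minus strand) encodes ELABELA, a short peptide ligand of the apelin receptor that is abundant in pluripotent cells. Apela stood at 168 and 168 CPM in the WT pair, 230.0 and 260.2 in the Ythdf1, 272 and 259.6 in the Ythdf2, 256 and 249 in the Ythdf3, 237 and 226 in the triple and 227 and 221 in the Mettl3 knockout pair. Unlike the other 8 genes, Apela was lower in all 4 triple and Mettl3 libraries than in 5 of the 6 single knockout libraries, the exception being Ythdf1 library A. Compared with WT its log2 change was 0.54 in the Ythdf1, 0.65 in the Ythdf2, 0.58 in the Ythdf3, 0.46 in the triple and 0.41 in the Mettl3 line. Of 6 other tested genes of apelin signalling, 0 were called in the single lines, 1 higher (Arrb2) and 1 lower (Mme, a peptidase) in the triple line, and 3 higher (Gnai2, Arrb1 and Arrb2) and 1 lower (Mme) in the Mettl3 line. A non-coding transcript of the same strand, Gm45886, overlaps Apela and was not tested.

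Kcnn2 and Pard6g, both on chromosome 18, were with Acat3 the members with the fewest counts and the largest changes. Kcnn2 (chr18:45268860-45686024, plus strand) encodes SK2, a potassium channel opened by intracellular calcium. Kcnn2 stood at 15.3 and 8.02 CPM in the WT pair, 36.7 and 34.98 in the Ythdf1, 29.7 and 25.6 in the Ythdf2, 33.5 and 23.9 in the Ythdf3, 43.7 and 45.2 in the triple and 26.3 and 36.3 in the Mettl3 knockout pair. The WT libraries held 9 and 17 counts of Kcnn2, so the WT level is imprecise, and the triple pair was above all other libraries. Log2 changes against WT came to 1.61 in the Ythdf1, 1.23 in the Ythdf2, 1.26 in the Ythdf3, 1.92 in the triple and 1.45 in the Mettl3 line, each with a standard error of 0.276 to 0.343. None of the 3 other tested genes of this channel list was called higher in any line.

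Pard6g (chr18:80046890-80119639, plus strand) encodes one of the PAR6 adaptors that hold atypical protein kinase C and CDC42 in the Par polarity complex. Pard6g stood at 18.9 and 23.2 CPM in the WT pair, 45.5 and 45.9 in the Ythdf1, 58.2 and 48.9 in the Ythdf2, 50.2 and 35.9 in the Ythdf3, 81.1 and 69.8 in the triple and 54.2 and 45.7 in the Mettl3 knockout pair. The triple pair again lay above all other libraries, and the other 8 knockout libraries lay between 35.9 and 58.2 CPM. The log2 change from WT was 1.11 in the Ythdf1, 1.33 in the Ythdf2, 1.00 in the Ythdf3, 1.83 in the triple and 1.22 in the Mettl3 line. Its paralog Pard6b changed by -0.35 in the triple and 0.26 in the Mettl3 line without a call. Of 12 other tested Par complex genes 0 were called higher in any line, and Llgl2 and Crb3 were lower in the triple and Llgl2 in the Mettl3 line.

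Bag1 and Pcbp1 encode regulators of protein and RNA fate. Bag1 (chr4:40936398-40948294, minus strand) encodes a cochaperone that releases nucleotide from HSP70. Bag1 stood at 296 and 305 CPM in the WT pair, 353 and 390.3 in the Ythdf1, 357 and 370.1 in the Ythdf2, 385 and 358 in the Ythdf3, 423 and 368 in the triple and 358 and 376 in the Mettl3 knockout pair. The 5 knockout pairs overlapped, with no order among them. In log2 terms it differed from WT by 0.31 in the Ythdf1, 0.28 in the Ythdf2, 0.30 in the Ythdf3, 0.39 in the triple and 0.29 in the Mettl3 line. DESeq2 called it in none of the 5 lines. Of 16 other genes of HSP70 proteins and their BAG cochaperones, 7 were called higher in the triple line, among them Bag3, Bag4, the stress-induced Hspa1a (log2 change 1.55) and the ER chaperone gene Hspa5, and Hspa4 was lower. In the single lines Hspa4 was called lower in the Ythdf2 and Ythdf3 lines and Hspa5 higher in the Ythdf3 line. In the Mettl3 line 4 were higher and 4 lower, and Hspa1a fell by 2.73.

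Pcbp1 (chr6:86524492-86526321, minus strand), a gene of a single exon, encodes a KH-domain protein that binds C-rich RNA and delivers iron to ferritin. Pcbp1 stood at 398 and 421 CPM in the WT pair, 493 and 520.4 in the Ythdf1, 538 and 519 in the Ythdf2, 547 and 486 in the Ythdf3, 641 and 531 in the triple and 654 and 560.0 in the Mettl3 knockout pair. Both Mettl3 libraries and triple library A were above all 6 single knockout libraries, and triple library B was among them. From WT it changed on the log2 scale by 0.31 in the Ythdf1, 0.37 in the Ythdf2, 0.33 in the Ythdf3, 0.51 in the triple and 0.55 in the Mettl3 line. The antisense gene 1600020E01Rik overlaps it by 75 bases and changed the other way, with log2 changes of -0.56 in the triple and -0.95 in the Mettl3 line, both called. Its paralog Pcbp2 was called in the Mettl3 line alone, where it fell by 0.57. Of 7 other genes of this list 0 were called in the triple line, and 2 were higher (Pcbp4 and the ferritin gene Ftl1) and 2 lower in the Mettl3 line. Ftl1 was also called higher in the Ythdf1 and Ythdf3 lines.

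**Figure D2:**
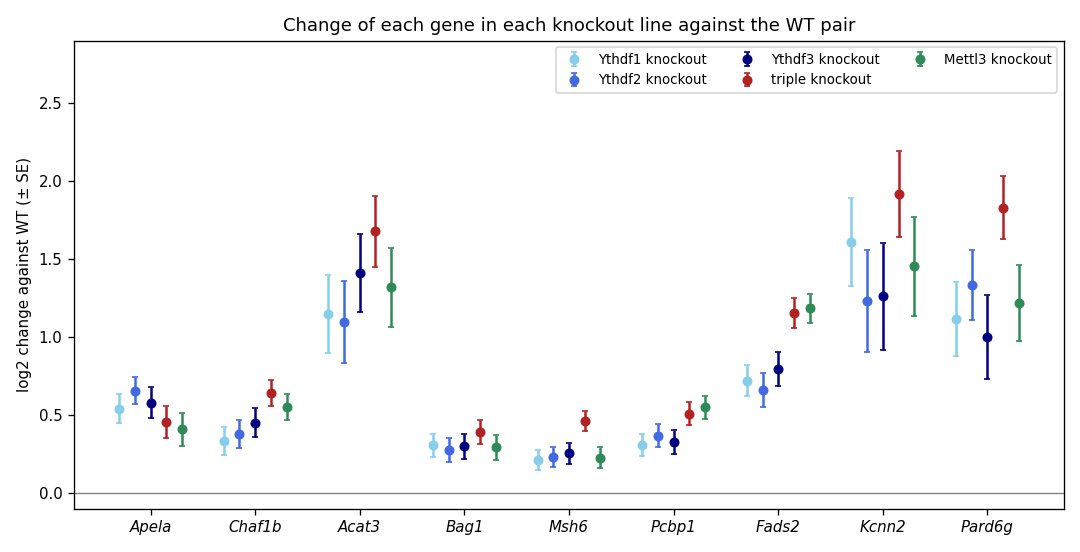
Log2 change against WT of each of the 9 genes in the 5 knockout lines, with the standard error of the fit. The triple line (red) has the largest change for 6 genes, the Mettl3 line (green) for Pcbp1 and Fads2, and the Ythdf2 line for Apela.

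The 9 transcripts differed widely in a sequence word tied to m6A. YTHDF proteins bind m6A, and GGACT is a frequent form of the sequence around the mark, so it was counted in the longest coding transcript of each gene (GENCODE M21). Fads2 held 9 GGACT in 3150 bases, or 2.86 per kb, more than 97.3% of 11058 tested genes. Chaf1b held 4, or 2.08 per kb (percentile 89.6), Kcnn2 6 (78.4), Pcbp1 2 (52.4), Msh6 4 (43.0) and Acat3 1 (15.8). Apela, Bag1 and Pard6g held none, as did 7.47% of all tested genes. The median of the 9 was 0.941 per kb and that of all tested genes 1.05. The following lines show the GGACT nearest the stop codon in capitals with 10 bases on each side, for 5 of the 6 genes that hold one. All 5 lie in coding sequence, from 186 bases (Acat3) to 1044 bases (Pcbp1) before the stop codon.
Fads2: atcactaccgGGACTggttcagcag
Chaf1b: ctgagcataaGGACTcccgacacag
Acat3: taaagaacttGGACTaaaccccgag
Msh6: agaaccacaaGGACTggcagtctgc
Pcbp1: gactgaaagcGGACTcaacgtgact
A match to these letters does not show that the adenosine is methylated, and m6A was not measured here. By length the transcripts ran from 975 bases for Apela to 4251 for Msh6, with a median of 2144 beside 3038 for all tested genes. Their 3′ UTRs had a median of 462 bases beside 1048, with those of Msh6 (87 bases) and Chaf1b (98 bases) under the fifth percentile. Only Fads2 had a GGACT in its 3′ UTR, where it held 4 of its 9.

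Promoters of the members were read for common motifs. RefSeq (GRCm38.p6) gave a window for 6 of the 9, of 250 bases before to 50 after the start. The GC-box letters GGGCGG, on either strand, were in 5 of the 6 (all but Apela) and in 35.7% of 32851 promoters. CCAAT was in 2, Apela and Msh6, and in 37.4% of all. Words bound by E2F factors (TTTCCCGC, TTTGGCGC, TTTCGCGC or TTTGCCGC, either strand) were in Msh6 alone and in 2.3% of all. TATAAA was in 0 of the 6 and CACGTG in Pcbp1. No motif was thus held by all 6. The windows of 3 genes are shown to 30 bases after the start, 5′ to 3′ on the gene's strand, with GGGCGG and with CCAAT and the E2F words of either strand in capitals. They are the 2 replication-linked genes and Apela, whose window was the poorest of the 6 in CpG, with 7 beside 30 and 37. The median of all 32851 promoters was also 7, and Chaf1b and Msh6 stood at percentiles 88.3 and 94.4. The Msh6 window covers chr17:87974800-87975079 (plus strand), that of Chaf1b chr16:93883651-93883930 (plus strand) and that of Apela chr8:65037307-65037586 (minus strand).
Msh6: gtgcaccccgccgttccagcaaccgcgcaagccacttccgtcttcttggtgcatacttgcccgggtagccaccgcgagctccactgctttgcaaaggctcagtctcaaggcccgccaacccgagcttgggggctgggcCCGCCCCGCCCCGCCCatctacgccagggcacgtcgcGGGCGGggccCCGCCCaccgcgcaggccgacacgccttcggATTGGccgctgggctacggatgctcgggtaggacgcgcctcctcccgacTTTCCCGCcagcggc
Chaf1b: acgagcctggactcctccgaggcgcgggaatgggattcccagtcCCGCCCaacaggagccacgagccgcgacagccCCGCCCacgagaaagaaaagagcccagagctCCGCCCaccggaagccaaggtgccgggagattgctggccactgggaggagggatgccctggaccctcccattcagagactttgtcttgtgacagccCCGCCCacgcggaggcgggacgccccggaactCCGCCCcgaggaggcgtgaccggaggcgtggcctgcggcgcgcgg
Apela: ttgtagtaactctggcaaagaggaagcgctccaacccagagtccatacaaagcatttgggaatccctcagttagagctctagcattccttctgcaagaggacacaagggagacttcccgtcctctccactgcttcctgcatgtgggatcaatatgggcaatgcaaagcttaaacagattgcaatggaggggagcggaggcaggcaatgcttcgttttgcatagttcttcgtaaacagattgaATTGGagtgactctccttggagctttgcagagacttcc

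Dose was then compared among knockout lines, a comparison that holds no WT library in the contrast, though the same knockout libraries took part in the choice of the genes. The triple line had a larger change than the mean of the 3 single lines for 8 of 9 genes. The median of this difference over all tested genes was 0.00479 on the log2 scale. For none of the 9 did the triple change reach the sum of the 3 single changes. That sum, unlike the contrast, counts the WT pair 3 times, and the genes were chosen for low WT levels. A sum above the triple change is thus favoured by the choice and is no measure of dose. For Fads2 that sum was 2.17 on the log2 scale and the triple change 1.15. For Apela it was 1.77 against 0.46. In the triple line against the mean of the singles, edgeR's quasi-likelihood test called 5 of the 9 genes higher, where 16.7% of all tested genes were called and 9.61% were called higher. The choice required a higher call in the triple line, which 13.3% of tested genes had, and in each single line. The share over all genes is thus no like baseline for the 9, and 5 of 9 is a description. The same limit holds for the other comparisons between knockout lines. Pard6g differed by 0.68 on the log2 scale (SE 0.168, adjusted p = 0.0019), Fads2 by 0.43 (SE 0.0845, adjusted p = 8.81e-05), Chaf1b by 0.26 (adjusted p = 0.0128), Msh6 by 0.23 (adjusted p = 0.00143) and Pcbp1 by 0.17 (adjusted p = 0.0434). Both triple libraries were above all 6 single knockout libraries for the first 4 of these genes, and also for Acat3 and Kcnn2. The share of all tested genes with this separation was not counted, so it is a description. Of the 4 not called, Kcnn2 differed by 0.55 (95% interval 0.11 to 0.99) and Acat3 by 0.46 (0.09 to 0.83), Bag1 by 0.10 (-0.05 to 0.24) and Apela by -0.14 (-0.31 to 0.04).

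Most of these calls depended on the test and on single libraries. DESeq2 called 0 of the 9 and 3.49% of all genes, with adjusted p-values of 0.0524 for Fads2, 0.174 for Msh6, 0.176 for Pard6g, 0.33 for Chaf1b and 0.472 for Pcbp1. By edgeR without triple library A, Fads2 alone was still called, and the adjusted p was 0.0641 for Msh6, 0.125 for Pard6g, 0.299 for Chaf1b and 0.885 for Pcbp1, whose difference was then 0.03. Chaf1b also lost its call without Ythdf3 library B (adjusted p = 0.0604). Pcbp1 lost it without WT library A (0.0606) or B (0.0536), Ythdf1 library A (0.0969), Ythdf2 library B (0.0893) or Ythdf3 library B (0.143).

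Loss of Mettl3, which removes the writer in place of the readers, was set against the same mean of single lines. Here edgeR called Fads2, higher by 0.46 (SE 0.0805, adjusted p = 4.46e-06), and Pcbp1, higher by 0.22 (adjusted p = 0.004), where 31.2% of tested genes were called and 15.8% were called higher. Fads2 kept its call under every alternative tried, DESeq2 included (9.93% of all genes called). Pcbp1 was not called by DESeq2 (adjusted p = 0.135) or without Mettl3 library A (difference 0.12, adjusted p = 0.267). The other 7 genes were not called: Apela differed by -0.18 (-0.36 to -0.01), Chaf1b by 0.17 (0.01 to 0.32), and the intervals of Acat3, Bag1, Msh6, Kcnn2 and Pard6g each took in 0. Without Ythdf1 library A, Apela was called lower in the Mettl3 line than in the singles (-0.22, adjusted p = 0.0497). Bag1 and Msh6 were closest to 0, with intervals of -0.13 to 0.13 and -0.12 to 0.10.

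Between the triple and the Mettl3 line, where 19% of tested genes were called and 10.5% called higher, Msh6 was higher in the triple line by 0.23 (SE 0.0673, adjusted p = 0.00827) and Pard6g by 0.61 (SE 0.212, adjusted p = 0.0335). Neither was called by DESeq2, which called 4.38% of all genes (adjusted p = 0.324 and 0.426), and each lost its edgeR call without triple library A (adjusted p = 0.0621 and 0.23) or without Mettl3 library B (0.307 and 0.313). Pard6g lost it also without triple library B (0.0585) or Mettl3 library A (0.0506). Fads2 differed by -0.03 with an interval of -0.24 to 0.18, and Pcbp1 by -0.04 with -0.19 to 0.11. Among the 3 single lines 1.34% of genes were called different by a joint test, and 0 of the 9 genes were. Their unadjusted p-values ran from 0.317 for Kcnn2 to 0.924 for Bag1, and DESeq2's likelihood ratio test called 0 as well.

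**Figure D3:**
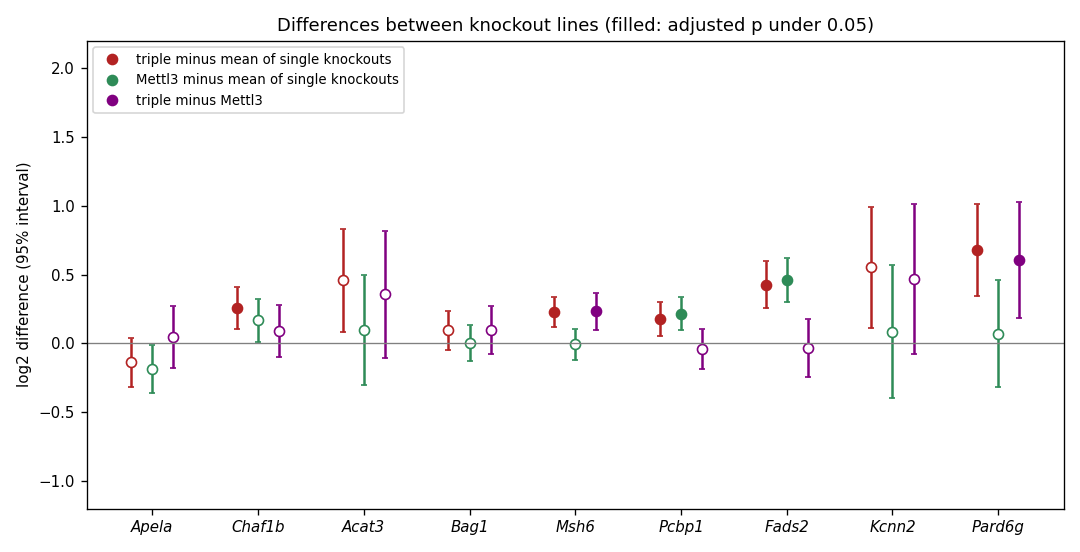
Differences between knockout lines on the log2 scale with 95% intervals, filled where the adjusted p was under 0.05. The triple line exceeds the mean of the single lines for 5 genes with a call, the Mettl3 line exceeds it for Fads2 and Pcbp1, and Apela lies below 0 in both.

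Because all 5 changes share the same 2 WT libraries, a departure of that pair would appear in every line at once. For comparison each group was taken in turn as the reference. Against WT, 19 genes were called higher and 22 lower in all 5 other groups. Against the Ythdf1 line the counts were 0 and 0, against the Ythdf2 line 1 and 4, against the Ythdf3 line 0 and 1, against the triple line 79 and 218, and against the Mettl3 line 459 and 430. Thus WT stood apart from all other groups in more genes than any single knockout line did and in fewer than the triple or Mettl3 line.

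The same order appeared without a test. Both WT libraries were below all 10 others in 596 genes (4.99%), the 9 members among them, and above all others in 682. For the Ythdf1, Ythdf2 and Ythdf3 pairs the numbers below were 155 (1.3%), 192 (1.61%) and 239 (2%), and for the triple and Mettl3 pairs 849 (7.1%) and 1544 (12.9%). The triple pair was above all others for 4 members, Chaf1b, Msh6, Kcnn2 and Pard6g, and for 1061 (8.88%) of all tested genes. A shift of the WT pair and a shift shared by the 5 knockout lines cannot be told apart with 1 WT line.

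**Figure D4:**
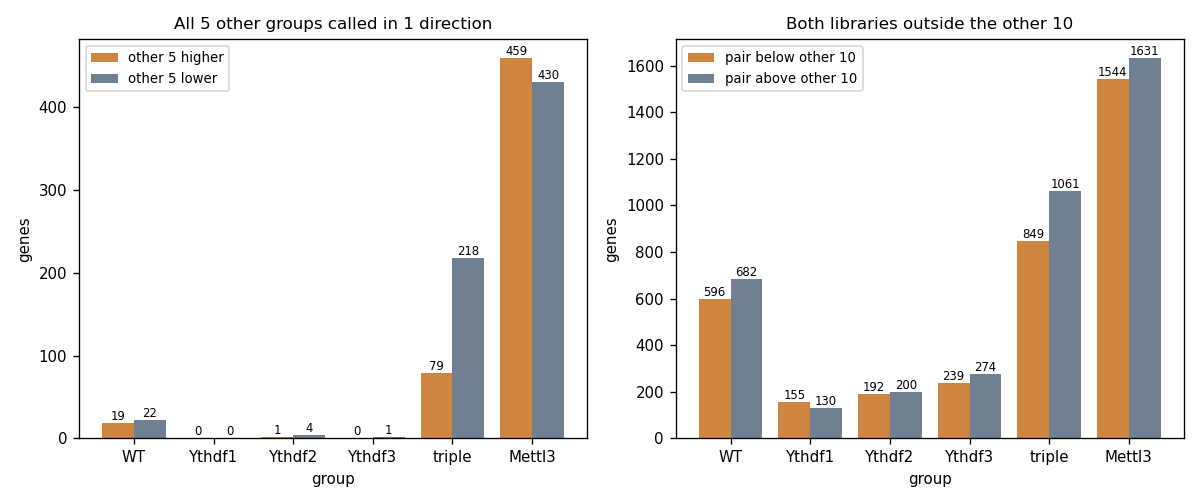
Number of tested genes that set each stem cell group apart: on the left genes called in 1 direction in all 5 other groups, on the right genes with both libraries of a pair outside the range of the other 10. WT lies above the 3 single knockouts in both panels and below the triple and Mettl3 lines.

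Several other measures of the WT pair were set beside those of the knockout libraries. WT libraries were the deepest, and with every library thinned to 612598 counts in 1 seeded draw the 45 changes all stayed positive, from 0.24 for Pcbp1 in the Ythdf1 line to 1.90 for Pard6g in the triple line, while 2 of the 9 genes, Acat3 and Fads2, were called in all 5 lines. With 1 WT library left out, 3 of 9 were called in all 5 without WT library A and 5 of 9 without WT library B. Leaving out Ythdf1 library B left 4, Ythdf2 library A 5 and library B 3, and Ythdf3 library A 3 and library B 6, Mettl3 library A 8 and library B 7, and Ythdf1 library A 8, each in a fit where the lone sample of a group is assumed to vary like the rest. Markers of 2-cell-like cells, a rare state of stem cell cultures, summed to 66.0 to 75.7 CPM in WT, 735 to 785 in the Ythdf1, 147 to 163 in the Ythdf2, 334 to 370 in the Ythdf3, 1418 to 1421 in the triple and 82.1 to 98.4 in the Mettl3 line, over 12 of 13 markers in the table (Tdpoz4 was at 0 in WT). Of these 12 markers, 12 were called higher in the Ythdf1, 1 in the Ythdf2, 9 in the Ythdf3, 12 in the triple and 0 in the Mettl3 line, and the 9 genes were above WT in all 5. Mesoderm markers summed to 157 to 172 CPM in WT and 92.0 to 150.2 in the knockout libraries, but they did not all move alike. Of 5 tested, 0 were called in the Ythdf1 and Ythdf2 lines, and Cxcr4 was lower in the Ythdf3 line. In the triple and Mettl3 lines T, Eomes and Cxcr4 were called lower and Gsc higher. Primitive endoderm markers summed to 125 to 131 in WT and 64.1 to 114 in the knockouts. Of 8 listed, 2 were tested, with 0 called in the single lines. Lama1 was lower in the triple line, and Gata4 and Lama1 in the Mettl3 line. Trophoblast markers summed to 256 to 292 in WT, within the 239 to 378 of the knockouts. Cdx2 was called lower in all 5 lines. In the Ythdf1, Ythdf2, Ythdf3, triple and Mettl3 lines 0, 1, 0, 2 and 3 trophoblast markers were called higher. Fibroblast feeder markers reached 111 to 129.7 in WT and 75.6 to 127 in the knockouts. These ranges overlapped, and the triple pair, at 122 to 127, lay within that of WT. Postn, Lum, Dcn and Twist2 of this list were not among the genes listed for these cells. The part of depth and of these cell states in the changes against WT was not tested, and in bulk RNA fewer cells of a type and less RNA per cell cannot be told apart.

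The changes of the members were set beside those of their neighbours. For each gene the 5 tested genes on either side were compared with its chromosome, whose median change was between -0.10 and 0.04 in every line for all 9. The median neighbour of Chaf1b, Acat3, Bag1 and Msh6 changed by -0.07 to 0.25 over the 5 lines, that of Kcnn2 by -0.13 to 0.27 and that of Fads2 by 0.03 to 0.31. Neighbours of Pcbp1 had negative medians in all 5 lines (-0.15 to -0.45), and those of Apela positive ones (0.02 to 0.42). Of the 10 neighbours of Apela 0, 0, 1, 6 and 4 were called higher in the Ythdf1, Ythdf2, Ythdf3, triple and Mettl3 lines, and 1 was lower in each of the last 2 lines. Neighbours of Pard6g had medians of 0.15 to 0.37, and 2, 3, 2, 3 and 5 of 10 were called higher in the same order, with 3 lower in the triple and 2 lower in the Mettl3 line. In the single lines Pard6g had more neighbours called higher than Apela, and in the triple line fewer.

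The genes around Pard6g showed a step at its own place, a pattern picked out after the values were seen. Pard6g is the first tested gene of a stretch that reaches the end of chromosome 18, 10.46 Mb from its start to that of Tmx3. The 20 tested genes beyond it had median log2 changes of 0.36, 0.47, 0.42, 0.30 and 0.63 in the Ythdf1, Ythdf2, Ythdf3, triple and Mettl3 lines. The 240 tested genes before it had medians of -0.05, -0.02, -0.01, -0.08 and -0.03 (Kcnn2 left out). Of the 20, 5 were called higher in the Ythdf1, 8 in the Ythdf2, 5 in the Ythdf3, 7 in the triple and 11 in the Mettl3 line, and 1 was called lower in the triple (Hsbp1l1, by -1.46) and 1 in the Mettl3 line (Sall3). Hsbp1l1, whose start is 0.183 Mb from that of Pard6g, changed by -1.03 in the Mettl3 line without a call. The higher calls are 25%, 40%, 25%, 35% and 55% of the stretch, beside 1.95%, 0.837%, 1.74%, 13.3% and 15.2% of all tested genes called higher.

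Of those 20, 4 were called higher in all 5 lines: Rbfa (mean change 0.59), Txnl4a (0.53), Ctdp1 (0.61) and Fbxo15 (0.92). With Pard6g, 5 of the 19 genes higher in all 5 lines thus lay in a stretch of 21 of the 11951 tested genes. Adnp2, the next gene after Pard6g, changed by 0.39 to 0.91. Of the genes beyond Pard6g whose mean log2 CPM reached 5, 13 of 15 changed upward in all 5 lines, beside 33 of 172 on the rest of the chromosome. That cut left out Zfp407 (mean change 0.72) and also Hsbp1l1 (-0.37), Sall3 (-0.17), Zfp236 (-0.04) and Tshz1 (-0.04). Mbp (-0.14) and Zadh2 (-0.08), which passed it, had negative means too, so the rise was not continuous along the stretch. When runs of 20 neighbouring tested genes were scanned on each chromosome for the smallest of the 5 medians, the run from Epg5, the tested gene just before Pard6g, to Socs6 gave 0.30, and the best run elsewhere, on chromosome 5, gave 0.14. DNA copy number was not measured. Kcnn2, at -34.8 Mb from Pard6g on the same chromosome, lies outside the stretch, and the remaining 7 members lie on 6 other chromosomes.

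**Figure D5:**
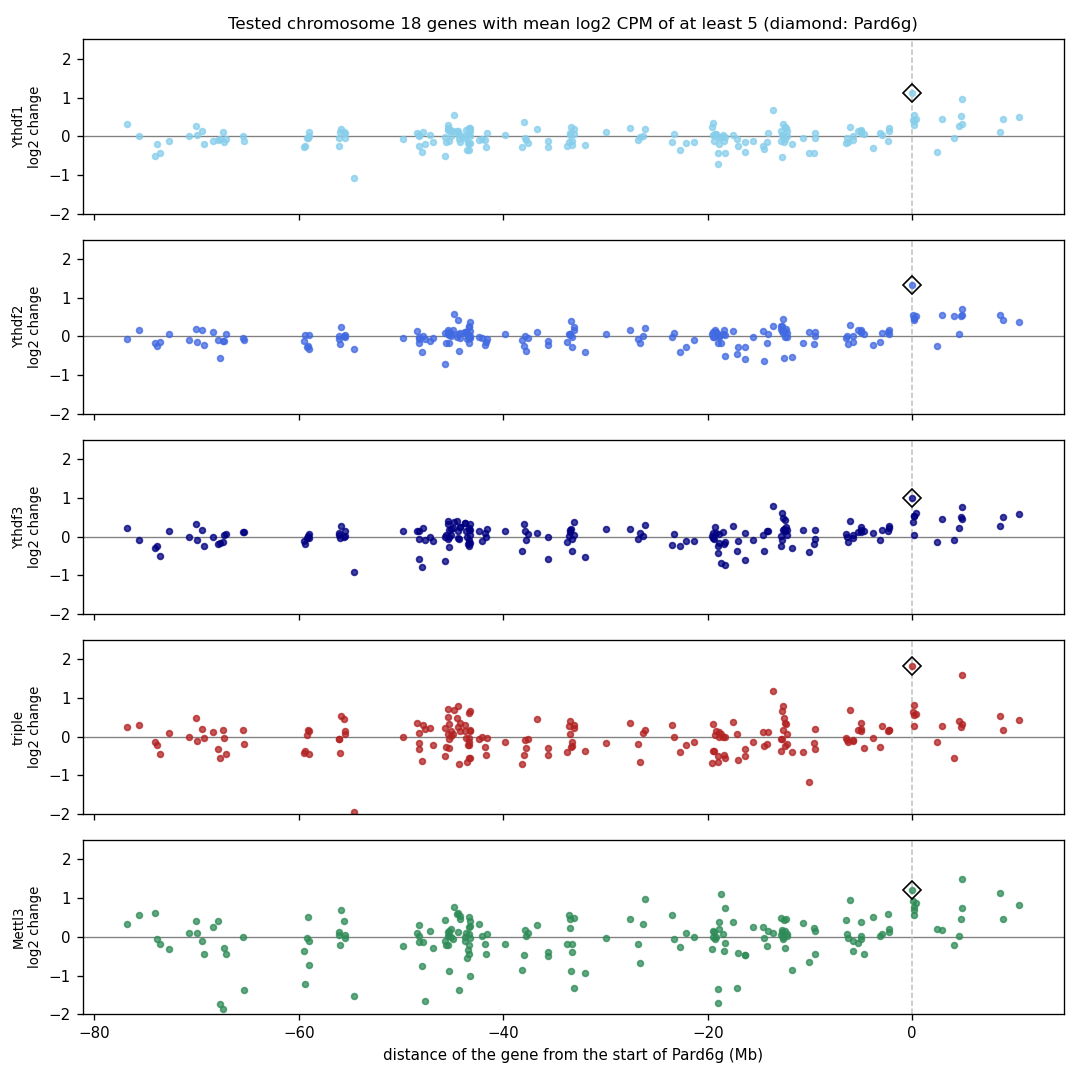
Log2 change against WT of the 188 tested genes of chromosome 18 whose mean log2 CPM reached 5, by distance from the start of Pard6g in Mb, with 1 panel per knockout line. The diamond marks Pard6g at 0. Genes to its right lie mostly above 0 in all 5 panels, with medians over the whole stretch of 0.30 to 0.63, and genes to its left scatter around 0.

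The choice of genes above WT in every line makes them alike across libraries that include WT. Over all 12 libraries the 36 pairwise correlations of log2 CPM had a median of 0.841 (0.598 to 0.951). Over the 10 knockout libraries alone the median was 0.525, with a range of -0.772 to 0.886. The first value is fixed in part by the choice, the points share libraries and scaling, and both are a description. Among named genes whose mean log2 CPM reached 5, the 2 most like Fads2 over 12 libraries were Rffl (r = 0.969) and Ssu72 (0.956), and those most like Chaf1b were Rtcb and Fads2 (0.951 each). B4galt5 was close to Apela (0.88). Acat3 was close to Rbpms2 (0.939), which is among the 19 genes higher in all 5 lines. Bag1 was nearest to Txnl4a (0.94), a gene of the stretch beyond Pard6g, and to Inpp5d (0.925). Pard6g was nearest to Wdr55 (0.928) and Msh6 (0.924), Msh6 to Psma4 (0.944) and Sept10 (0.935), Pcbp1 to Pop4 (0.927) and Chaf1b (0.926), and Kcnn2 to Ddx4 (0.931) and Rsrc2 (0.92).

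The germline experiments gave a test of the same genes in samples that took no part in the choice. In GV oocytes that lost Mettl3, which itself was at 3.47, 1.35 and 0.901 CPM against 41.7, 28.1, 13.2 and 25.8 in controls, 28.8% of 13551 tested genes were called, 15.4% higher and 13.4% lower. Of the 6 members tested there, 0 rose and Kcnn2 fell. Kcnn2 stood at 19.95, 19.5 and 24.6 CPM in the 3 conditional knockout samples and at 99.2, 66.2, 43.5 and 62.3 in the 4 controls. The groups did not overlap, and the change was -1.67 on the log2 scale (SE 0.303, adjusted p = 0.00376 by edgeR), 3.18-fold lower, opposite in direction to the stem cells. It stayed between -1.43 and -2.04 under every alternative tried and was called in each.

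Markers of granulosa and cumulus cells, which surround oocytes, summed to 23.1 to 194 CPM in these knockouts and 294 to 1793 in controls, with all 9 in the table and above 0 in both groups. Without the 2 controls highest in them Kcnn2 changed by -2.04. The other tested members were not called. Pcbp1 ranged from 267 to 710.0 CPM in knockouts and from 86.6 to 561 in controls. Msh6 changed by 0.03 (-0.39 to 0.44), Chaf1b by -0.10 (-0.88 to 0.68), Bag1 by -0.13 (-1.01 to 0.74) and Pard6g by -0.46 (-1.09 to 0.18). Acat3 and Fads2, with at most 12 and 6 counts, fell under the filter, and Apela was not analysed in the germline tables.

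In oocytes past the GV stage, Ythdf2 loss gave 0 calls among 13910 genes by edgeR (0% of those tested, with 782 at an unadjusted p under 0.05), and 94 (0.577%) by DESeq2. The libraries fell into 2 batches, read from the authors' batch-adjusted values, and with a batch term edgeR called 258. None of the 7 members tested was called in either fit. Kcnn2 was higher in both knockouts, at 30.6 and 21.1 CPM, than in the 3 heterozygotes, at 14.8, 9.41 and 13.9, a change of 1.02 (adjusted p = 0.848 by edgeR) and 1.31 within the first batch. Bag1 was at 36.3 and 6.05 CPM in knockouts and 58.99, 89.8 and 13.3 in heterozygotes, where the second sample of the knockouts and the third of the heterozygotes form 1 batch. Its change was -1.35 and, with the batch term, -1.08 (adjusted p = 0.181). Msh6 changed by 0.81, Pcbp1 by 0.55, Pard6g by -0.36, Chaf1b by -0.17 and Fads2, on 1 to 26 counts, by -2.35, all with intervals that took in 0.

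In round spermatids, with 1 WT library, 4.9% of 16031 genes were called and 0 of the 7 members tested. Pard6g was at 1.798 and 2.13 CPM in the knockouts and 5.21 in WT, a change of -1.41 (SE 0.614, adjusted p = 0.186 by edgeR). Bag1, abundant in these cells, was at 601 and 504 against 482 CPM, and Msh6 at 79.5 and 63.4 against 63.4. Pcbp1, low here, was at 11.1 and 5.55 against 12.5, and Chaf1b at 9.15 and 7.63 against 8.76. Fads2, with 6 to 26 counts, and Kcnn2, with 2 to 12, were near the detection limit.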

How the data were processed

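Gene counts of 12 stem cell, 7 GV oocyte, 5 later oocyte and 3 round spermatid libraries were used as deposited. Per the submitters' processing notes CASAVA 1.8.2, cutadapt, STAR 2.4.2a and DESeq2 were used on mm10, and the sources used here name no counter, strand setting or annotation. Beside raw counts, the deposited tables hold, per the file headers, the authors' normalized counts (a signal, each count divided by a size factor per library), their log2 values (regularized or batch-adjusted, and fold changes), their p-values and a mean of normalized counts. No result rests on these, except that the batches of the later oocytes were read from the batch-adjusted log2 values. Every column of values was matched to a sample or comparison, so 0 were left over.

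Counts were fitted with edgeR 4.0.16 (R 4.3.3, limma 3.58.1): TMM scaling, filterByExpr, robust quasi-likelihood F test, with all stem cell groups in 1 fit. P-values were Benjamini-Hochberg adjusted over all tested genes, and called means an adjusted p under 0.05. Intervals are at 95%. The script was tested on simulated data. The numbers of same-lettered or same-numbered samples did not pair them (deviations from the group means correlated at -0.000967 to 0.116 between stem cell groups and at 0.0919 to 0.417 between GV oocyte groups), so no block was used.

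The members and gene lists were chosen with earlier results of these data known. Named were the members, the 4 targeted genes, paralogs, up to 4 called genes per pathway list by smallest p in the triple or Mettl3 line, and the 2 genes most like each member. Other called genes of these lists, overlapping genes, neighbours and genes near the criterion were named after their values were seen. Gene positions, overlaps and lengths are those of GENCODE M21 on GRCm38, the build of mm10. Some genes that this rule names are not reported here.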

Additional observations from a re-analysis of the deposited data

Results flagged for a closer look

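In 1 germ cell comparison each, every knockout sample of 3 genes of the 9 lay on the other side of its controls from the stem cells of the same mutation. How many of all tested genes separated in this way was not counted. In the round spermatids the 1 WT sample need only lie outside the knockout pair, so such a separation carries little weight there. Kcnn2 was lower in all 3 Mettl3 conditional knockout GV oocyte samples than in all 4 controls (log2 change -1.67), while both Mettl3 knockout stem cell libraries were above WT. Pard6g (-1.41) and Pcbp1 (-0.59) were lower in both Ythdf2 knockout round spermatid samples than in the 1 WT sample, while both Ythdf2 knockout stem cell libraries were above WT. Pard6g (-0.36) and Pcbp1 (0.55) had overlapping groups in the post-GV Ythdf2 comparison. In 3 cases every knockout sample lay on the same side as in the stem cells: Kcnn2 was higher in the post-GV (log2 change 1.02) and round spermatid (2.33, on 2 to 12 counts) Ythdf2 knockouts, and Bag1 in the round spermatid knockouts (0.20). In edgeR's quasi-likelihood test the Kcnn2 change in GV oocytes was called (adjusted p = 0.00376), and none of the Ythdf2 knockout changes given here was. The differences between cell types were not tested, because the tables were made separately and the library kits and mouse backgrounds differ between them.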

How the results depend on the processing

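Of 2074 values computed under alternatives, 1819 were rated the same. For a log2 change this meant the same direction and the same side of the threshold. For counts of genes and for shares of higher calls it meant a value near the main one, not an unchanged one. Of the log2 changes 44 changed sign, and 0 of those were called. By this rating RLE scaling left 132 of 133 the same. With the replicate letter or number as a block 110 of 112 stayed, 9 members and 21 genes were called higher in all 5 lines, and the post-GV oocytes gave 3 calls. The letters did not pair the samples.

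DESeq2 called 51, 10, 25, 674 and 1156 genes in the Ythdf1, Ythdf2, Ythdf3, triple and Mettl3 lines, 489 (0 members) in the triple and 1391 (1 member) in the Mettl3 line against the singles, 613 (0 members) between the triple and Mettl3 lines, 33 among the singles, 94 in post-GV oocytes and 408 in round spermatids. It called 1 gene higher (0 members) and 0 lower in all 5 lines. The share of its calls that were higher was 94.1% in the Ythdf1 and 96% in the Ythdf3 line, 67.9% for triple against singles and 66.4% for triple against Mettl3. Thinning, chosen after the data were seen, left 194, 101 and 195 calls in the single lines, 4 genes higher (2 members) and 8 lower in all 5, 3 members for triple against singles and 1 for triple against Mettl3. The stricter filter gave 2449 calls in GV oocytes and 334 in spermatids (63.8% higher). Also added later, a batch term gave 258 and the first batch alone 666 calls in post-GV oocytes.

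With 1 library left out, calls ranged over 193 to 427 (Ythdf1), 54 to 250 (Ythdf2), 112 to 343 (Ythdf3), 1799 to 3171 (triple), 2319 to 3797 (Mettl3), 938 to 2062 (triple against singles, 1 to 5 members), 1998 to 3892 (Mettl3 against singles, 1 to 2 members), 1352 to 2395 (triple against Mettl3, 0 to 2 members), 79 to 168 (among singles), 2254 to 4243 (GV) and 0 to 1 (post-GV). Genes higher in all 5 lines ranged from 6 to 22, with 3 to 9 members, and lower from 6 to 20. Leaving out 1 spermatid library, or blocking, could not be fitted.

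Values that crossed 0, none called, were as follows. For triple against singles Bag1 ranged from -0.01 to 0.19 with 1 library left out. For Mettl3 against singles the ranges were -0.19 to 0.41 for Acat3, -0.05 to 0.03 for Bag1, -0.07 to 0.07 for Msh6, -0.22 to 0.26 for Kcnn2 and -0.04 to 0.20 for Pard6g. Bag1 was also -0.01 under other filters and 0.00 with the block, with only the compared groups and after thinning, and Msh6 was 0.00 by DESeq2. For triple against Mettl3 Pcbp1 ranged from -0.17 to 0.10 and Fads2 from -0.07 to 0.02, and thinning gave Fads2 0.06. In GV oocytes the ranges were -0.38 to 0.17 for Chaf1b, -0.36 to 0.26 for Bag1, -0.12 to 0.09 for Msh6 and -0.27 to 0.66 for Pcbp1. Msh6 was there -0.06 under RLE, -0.02 under the stricter filter, -0.05 by DESeq2 and -0.02 without the 2 controls highest in granulosa markers, where Bag1 was 0.39. In post-GV oocytes Chaf1b ranged from -1.64 to 0.53 and Pcbp1 from -0.69 to 1.21, and the first batch gave 0.26 and -0.72. Fewer libraries, fewer counts and the tests' own models differ between these settings, and the cause was not tested. Acat3, Kcnn2 and Pard6g had the fewest counts, at most 52 per stem cell library, and the part of depth in their calls was not tested.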
